A study of Mus musculus with 1483 samples.

Results

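The genes described here are the Kv1 potassium channel genes of cortical neurons: Kcna1, Kcna2, Kcna3, Kcna4 and Kcna6, which encode pore-forming alpha subunits, and Kcnab1, Kcnab2 and Kcnab3, which encode the beta subunits that bind them. They were taken by name and are 8 of 45768 gene columns, of which 36201 were above 0 in at least 1 cell. All 8 passed the filter on low values in each fit. The cells came from the region labelled VISp, the primary visual area of the mouse cortex, of C57Bl/6J mice. Each mouse carried an adeno-associated virus in which 1 enhancer drives the fluorescent protein SYFP2, and single fluorescent cells were collected by flow sorting and profiled with the SMARTerv4 chemistry, which makes cDNA from polyadenylated RNA. The 1483 cells came from 33 mice in 11 enhancer groups. eHGT_064h had 4 mice and eHGT_082h had 2. The groups eHGT_017h, eHGT_019h, eHGT_023h, eHGT_058h, eHGT_078h, eHGT_079h, eHGT_128h, eHGT_140h and hDLXI56i had 3 each. Every mouse carried a virus, so there is no uninjected group, and the enhancer decides which cells were collected. Neither age nor sex is stated in the labels.

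Kv1 channels open when the membrane depolarizes and let potassium leave the cell. Alpha subunits of different genes assemble around a shared pore, and the mix sets how fast the channel inactivates. In the brain they sit mostly in axons, at the initial segment, beside nodes of Ranvier and near terminals, where they hold back repetitive firing and limit transmitter release. The beta subunits lie on the inner face of the channel, are built like an oxidoreductase enzyme, help carry channels to the axon, and in the case of the Kcnab1 product can plug the open pore. In fast-spiking interneurons marked by parvalbumin, Kv1 channels of the initial segment raise the threshold for firing.

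The coding sequence of each of the 5 alpha genes lies in 1 exon, and the stretch that encodes the selectivity filter shows how alike these genes are. How reads from that stretch were assigned to genes was not tested. The following 60 bases, read from the GRCm38 genome on the coding strand, are coding exon sequence and carry the 18 bases of the 6 filter codons in capitals.
Kcna1: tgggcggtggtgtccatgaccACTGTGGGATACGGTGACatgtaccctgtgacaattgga
Kcna2: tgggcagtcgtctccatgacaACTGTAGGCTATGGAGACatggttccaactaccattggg
Kcna3: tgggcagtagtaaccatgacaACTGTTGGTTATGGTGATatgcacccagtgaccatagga
Kcna4: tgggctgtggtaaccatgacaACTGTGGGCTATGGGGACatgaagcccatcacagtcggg
Kcna6: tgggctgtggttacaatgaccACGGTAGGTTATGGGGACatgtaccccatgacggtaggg
They lie at chr6:126642204-126642263 on the minus strand (Kcna1), chr3:107105203-107105262 on the plus strand (Kcna2), chr3:107037590-107037649 on the plus strand (Kcna3), chr2:107296474-107296533 on the plus strand (Kcna4) and chr6:126738623-126738682 on the minus strand (Kcna6). Of the 60 bases, Kcna2 shared 43 with Kcna1, Kcna3 shared 47, and Kcna4 and Kcna6 shared 45 each. Within the 18 filter bases, Kcna4 shared 15, Kcna2 and Kcna3 shared 14 each and Kcna6 shared 13. Even in this stretch the genes differ at many bases, and the longest run of identical bases between Kcna1 and Kcna6 transcripts was 31. Kcna3 and Kcna2 are neighbours on chromosome 3 with 63075 bases between them, and Kcna1 and Kcna6 are neighbours on chromosome 6 with 61944 bases between them.

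Values are counts per 1000000 reads (CPM) per cell, as the authors deposited them, and each mouse is 1 replicate through the mean CPM of its cells. Cells per mouse ranged from 32 to 53 and reads per cell had a median of 586338, with 16 cells under 100000 reads. At the median depth, 1 read is 1.71 CPM. Library names carry prefix letter G in 24 mice and J in 9. Classes were set by thresholds. GABAergic cells had Gad1 or Gad2 at 10 CPM or more without Slc17a7, glutamatergic cells the reverse, and a GABAergic class needed exactly 1 of Pvalb, Sst, Vip and Lamp5 at 100 CPM or more. Glutamatergic cells were divided by Rorb and Fezf2 at 10 CPM. Mouse profiles of at least 5 cells were kept, which gave 64 profiles of 1175 cells from 33 mice: Pvalb (21 mice), Sst (12), Vip (4), Lamp5 (7), Rorb (5), Fezf2 (3), Rorb with Fezf2 (5) and neither (7). All 3 Fezf2 profiles came from eHGT_078h and the Rorb with Fezf2 profiles from eHGT_058h and eHGT_078h alone, so class and enhancer cannot be told apart there. Class fits on mice of 1 prefix letter set a class against fewer others. That of G lacks Rorb and Fezf2, and that of J holds only Pvalb, Sst, Rorb and neither. The class checks followed the names. Lhx6, a transcription factor of Pvalb and Sst neurons, had medians of 117.5 and 156.6 CPM in those classes and was at 0 in all 4 Vip profiles, Adarb2 had medians of 1797 and 766.96 CPM in Vip and Lamp5, and Slc32a1, the vesicular GABA transporter, was at 0 in all 20 glutamatergic profiles. Neurod6, a transcription factor of glutamatergic neurons, had a median of 1.26 CPM in Fezf2 against 188.6 CPM or more in the other 3 glutamatergic classes.

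Markers of other cells moved with some classes. The summed level of 4 astrocyte genes was 56.1 to 112.2 CPM in Rorb with Fezf2, 8.48 to 74.2 in Rorb and 0 to 9.79 in Pvalb. With all cells of a mouse averaged, the highest levels were 56.3 CPM for Aldh1l1, 27.1 for Slc1a3, 4.55 for Gja1 and 2.98 for Aqp4. The summed level of 4 oligodendrocyte genes was 92.9 to 154.8 CPM in Rorb and 13.9 to 61.5 in Pvalb, and reached 2872 CPM in 1 Sst profile against an Sst median of 36.7. Microglia, endothelial and oligodendrocyte precursor genes summed to 14.5 CPM or less in every class profile. Over all cells of a mouse, the endothelial sum reached 26.5 CPM in the eHGT_078h MouseID-454782. The oligodendrocyte sum, with a median of 35.3 CPM over mice, was 845.2 in the eHGT_023h MouseID-497548. It was 553.8 in the eHGT_082h MouseID-475242 and 456.3 in the eHGT_064h MouseID-468100. In the Vip class the neuronal pair Snap25 and Rbfox3 summed to 2571 to 3654 CPM against 5077 or more in all other classes, and the median number of genes per cell was 7881.5 against 9907 in Pvalb. The part of these markers in the differences below was not tested.

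All 8 genes differed across the classes in limma's omnibus test with Benjamini-Hochberg adjustment over the 22092 genes tested, in which 67.2% of all genes were called, so the 8 calls stand near the background. The smallest adjusted p was 1.34e-29 for Kcnab3 and the largest 1.52e-10 for Kcnab2. A gene was called in a single class when its level differed from the mean of the other 7 classes with an adjusted p under 0.05 and by at least 1 on the scale of log2(mean CPM + 1). Of the 64 pairs of gene and class, 25 were called, against 11.3% of all genes over the same 8 comparisons. The Pvalb class held 7 of the 8 genes called, against 12.1% of all genes, with 6 higher against 5.44% and 1 lower against 6.7%. The Vip class held 6, against 13.8%. The Rorb with Fezf2 class held 3 and Rorb 2, each against 13.2%, Sst 2 against 8.95%, Fezf2 2 against 7.79%, the class with neither marker 2 against 9.89%, and Lamp5 1 against 11.2%. The median log2 difference of the 8 genes was 1.40 in Pvalb, where that of all genes was -0.05 (-0.045), and -0.64 in Vip, where that of all genes was -0.14.

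**Figure D1:**
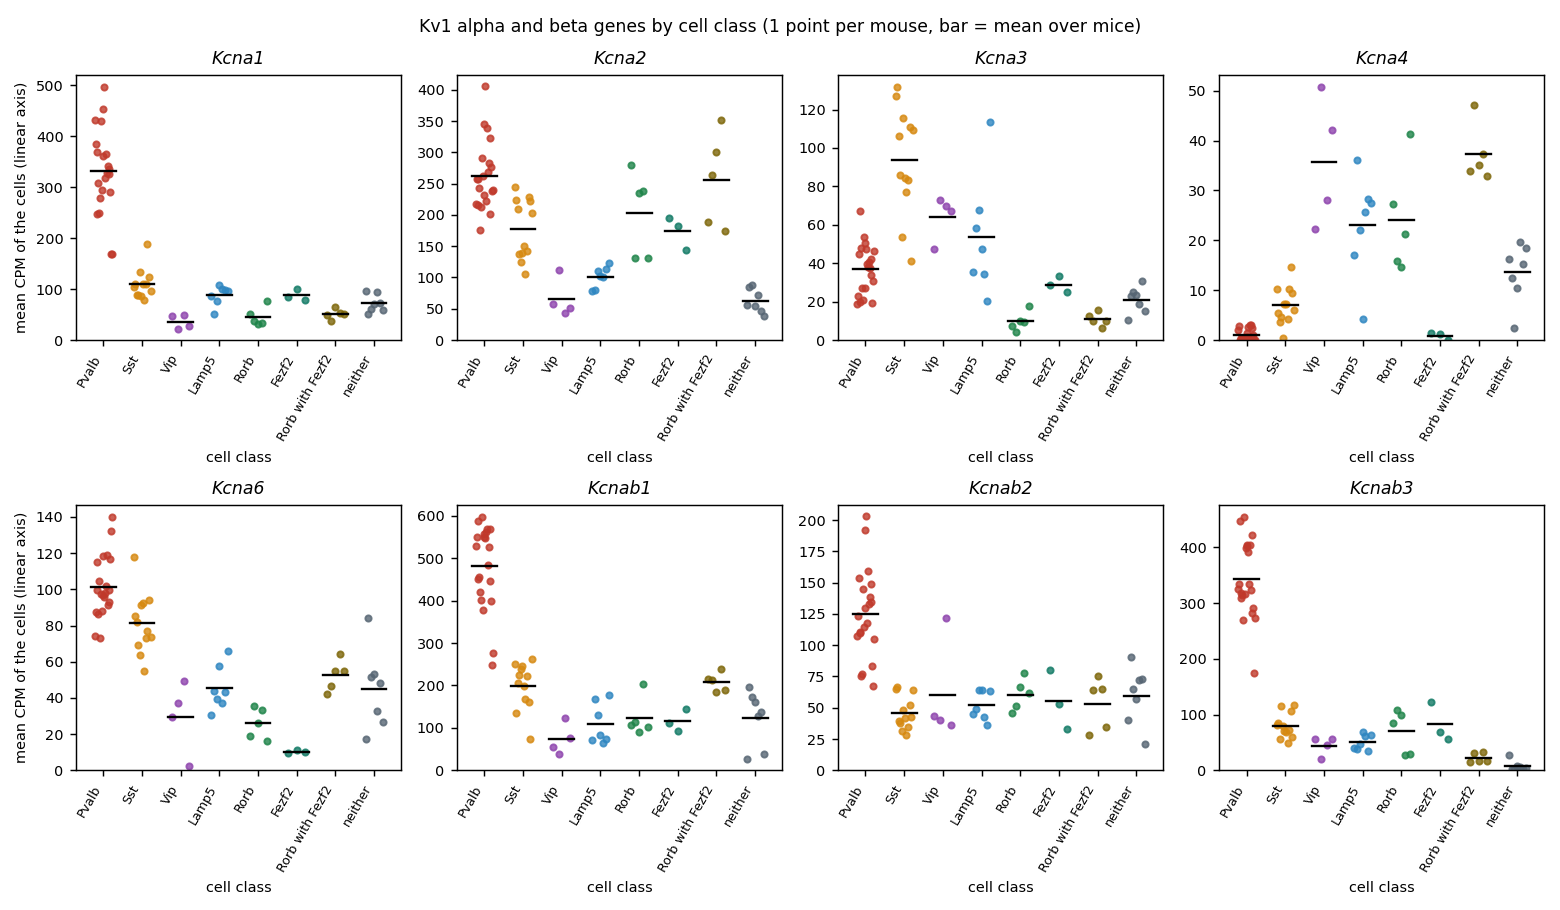
Mean CPM of the cells of each mouse (points, linear axis from 0) for the 8 genes in 8 cell classes, with the mean over mice as a bar. Kcnab3 in the 21 Pvalb profiles sits at 174.8 to 453.7 CPM, above every profile of the other classes, and Kcna4 sits at 3.03 CPM or less in Pvalb.

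Kcna1, whose channels open with small depolarizations and stay open, was the alpha gene that stood furthest above the other classes in Pvalb on the log2 scale. Its lowest, median and highest levels in 21 Pvalb profiles were 168.7, 327.8 and 497.4 CPM. In the 12 Sst profiles, next in order, they were 78.9, 106.4 and 188.2 CPM, so the groups met only where the lowest Pvalb mice fell below the highest Sst mouse. The mean was 330.96 ± 84.2 CPM in Pvalb (SD, n = 21) against 70.2 CPM over the other classes, a log2 difference of 2.30 with SE 0.10 and a limma adjusted p of 2.59e-29. At the other end stood the Vip class, with 47.5 and 21.3 CPM in the eHGT_017h mice MouseID-406074 and MouseID-410195, 48.8 CPM in the eHGT_019h mouse and 26.7 CPM in the hDLXI56i mouse. All 4 lay below the 52.1 CPM of the lowest Lamp5 mouse. The Vip level was lower than in the other classes by a log2 difference of -1.32 (SE 0.20, limma adjusted p = 2.14e-07), a call that limma voom on recovered reads put just past the threshold with an adjusted p of 0.0507. Between these ends lay Lamp5 (88.5 CPM), Fezf2 (87.9), neither (72.4), Rorb with Fezf2 (50.9) and Rorb (45.7), each overlapping the next in order.

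Kcna2, the usual partner of the Kcna1 product in axonal channels, was spread more evenly. Its lowest, median and highest levels were 176.1, 256.65 and 406.05 CPM in Pvalb. In Rorb with Fezf2 the 5 mice had 174.2 to 351.7 CPM around a median of 263.2, so these classes overlapped nearly whole. Pvalb was higher than the other classes by a log2 difference of 1.01 (SE 0.10, limma adjusted p = 8.9e-14). That call sat at the fold limit: without MouseID-401668, MouseID-458159, MouseID-473545, MouseID-475242, MouseID-473546 or MouseID-473543 in turn the difference was 0.9825 to 0.9987, and it was 0.94 with mouse as a fixed block, 0.95 with a pseudocount of 10, 0.98 in mice of prefix letter J and 0.99 when a cell took the class of its highest marker. Lower than the other classes were Vip (66.1 ± 31 CPM, n = 4, log2 difference -1.35, limma adjusted p = 3.85e-08) and the class with neither marker (62.6 ± 19.1 CPM, n = 7, log2 difference -1.36, limma adjusted p = 6.48e-12). Fezf2, with 144.7 CPM in its lowest mouse, did not overlap Lamp5, next in order, with 122.3 CPM in its highest. Sst, above Fezf2 in order, did overlap Lamp5, with 105.85 CPM in its lowest mouse.

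Kcna3, best known from lymphocytes, where it is the main Kv1 channel of T cells, had another order. It was highest in Sst, with a lowest, median and highest of 41.3, 96.2 and 131.9 CPM in 12 mice. Vip followed with 47.3 and 73 CPM in the eHGT_017h mice MouseID-406074 and MouseID-410195, 69.7 in the eHGT_019h mouse and 67.3 in the hDLXI56i mouse, all inside the Sst range. In Sst the mean of 94 ± 28.1 CPM stood against 32.2 CPM over the other classes (log2 difference 1.82, SE 0.17, limma adjusted p = 9.57e-14). Vip was higher by 1.20 on the log2 scale (limma adjusted p = 0.00054), and this was 0.89 with a pseudocount of 10, 0.61 with the mean of log2 per cell, 0.86 in mice of prefix letter G and 0.98 with mouse as a fixed block, each of which ended the call. Rorb was lower, with 7.32 CPM in its eHGT_023h mouse, 4.23, 9.86 and 9.13 in eHGT_058h mice and 17.9 in its eHGT_078h mouse (log2 difference -1.85, limma adjusted p = 7.88e-09). Rorb with Fezf2 was lower too, at 6.20 to 15.9 CPM over 5 mice (log2 difference -1.605, limma adjusted p = 2.54e-07). Pvalb, at 36.9 ± 13.2 CPM, did not pass the test (log2 difference 0.29, limma adjusted p = 0.1004).

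Kcna4, whose product inactivates fast through its own N-terminal ball, was near 0 in the Pvalb class. The lowest, median and highest levels were 0, 0.50 and 3.03 CPM in the 21 Pvalb mice. In Fezf2 the 3 mice had 1.35, 1.19 and 0 CPM, within the Pvalb range. The 5 Rorb with Fezf2 mice, at the top of the order, had 33.8, 47.1 and 35.1 CPM in eHGT_058h and 37.2 and 32.9 CPM in eHGT_078h, with no overlap with either low class. The mean was 0.99 ± 1.13 CPM in Pvalb against 20.2 CPM over the other classes (log2 difference -3.03, SE 0.22, limma adjusted p = 1.34e-19), and Fezf2 was lower by a log2 difference of -3.08 (limma adjusted p = 4.12e-07). Higher were Rorb with Fezf2 (2.13, limma adjusted p = 3.3e-06) and Vip, with 22.2 and 50.7 CPM in the eHGT_017h mice MouseID-406074 and MouseID-410195, 28.1 in the eHGT_019h mouse and 42.1 in the hDLXI56i mouse (1.94, limma adjusted p = 0.000174, and 0.174 with mouse as a fixed block). With a pseudocount of 10, which shrinks low levels, these 4 log2 differences were -1.27, -1.32, 1.16 and 1.04 (1.035). Lamp5 (1.11) and Rorb (1.34) were also called higher, but both calls depended on which classes were compared. Leaving out MouseID-453328, MouseID-454782 or MouseID-498749 removes the low Fezf2 class from the comparison. The differences were then 0.69 to 0.72 for Lamp5 and 0.72 to 0.92 for Rorb. Lamp5 was also 0.98 without MouseID-400156. A pseudocount of 10 ended both calls, at 0.46 and 0.57. The Lamp5 call also ended with the mean of log2 per cell (0.48), mouse as a fixed block (0.66), a class threshold of 10 CPM (0.78) and mice of prefix letter G (0.83).

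Kcna6, a less studied alpha gene that forms axonal channels with the others, was highest in Pvalb and Sst. The lowest, median and highest levels were 73, 98 and 139.8 CPM in Pvalb. In Sst they were 55.1, 79.6 and 117.9 CPM, inside or just below the Pvalb range. The lowest class was Fezf2, with 9.40, 11.2 and 10.1 CPM, below every mouse of the other classes except the hDLXI56i Vip mouse at 2.54 CPM. Pvalb was higher than the other classes by a log2 difference of 1.595 (SE 0.15 (0.145), limma adjusted p = 4.58e-15), Sst by 1.23 (limma adjusted p = 2.8e-08), and Fezf2 was lower by -2.02 (limma adjusted p = 7.09e-07). The Sst call ended without MouseID-453328, MouseID-454782 or MouseID-498749 (0.93 to 0.97, with the Fezf2 class then absent) and with a pseudocount of 10 (0.97). It also ended in mice of prefix letter G (0.89) and in those of J (0.74), whose fits lack the Fezf2 class too. Vip, at 29.4 and 37.3 CPM in the eHGT_017h mice MouseID-406074 and MouseID-410195, 49.2 in the eHGT_019h mouse and 2.54 in the hDLXI56i MouseID-400157, was called lower at -1.01. It was -0.11 without MouseID-400157, -0.97 without MouseID-458159 and -0.98 without MouseID-497551, and 5 of the alternative fits also ended it.

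Kcna3 and Kcna4 were both higher in Vip and both lower in Pvalb than in Sst. They went opposite ways in Rorb and in Rorb with Fezf2, where Kcna3 was lower (log2 differences of -1.85 and -1.605) and Kcna4 higher (1.34 and 2.13), each called. The 250 bases before their RefSeq starts (GRCm38.p6) are shown, with GGGCGG or its reverse complement in capitals.
Kcna3: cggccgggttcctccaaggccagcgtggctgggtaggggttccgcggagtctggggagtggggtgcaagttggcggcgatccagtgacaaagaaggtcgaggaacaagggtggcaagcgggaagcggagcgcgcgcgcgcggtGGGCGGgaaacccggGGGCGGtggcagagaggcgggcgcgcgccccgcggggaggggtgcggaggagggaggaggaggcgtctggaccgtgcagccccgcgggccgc
Kcna4: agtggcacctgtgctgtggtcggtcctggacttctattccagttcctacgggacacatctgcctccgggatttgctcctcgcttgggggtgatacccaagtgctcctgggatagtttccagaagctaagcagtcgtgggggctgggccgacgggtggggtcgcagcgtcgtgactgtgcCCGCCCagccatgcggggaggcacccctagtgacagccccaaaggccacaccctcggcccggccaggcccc
They lie at chr3:107035912-107036161 and chr2:107290339-107290588, both on the plus strand. The Kcna3 window held 31 CG pairs and the Kcna4 window 14, where the median of 32851 such windows in the table was 6. GGGCGG was found 2 times in the Kcna3 window and 1 time in that of Kcna4, and 32.7% of all windows hold it on either strand. CANNTG was found 3 times before Kcna4 and not before Kcna3, with 66.2% of windows holding it, and neither window held TATAAA (12.4%), CCAAT (33.8%) or TGACGTCA (1.5%). Kcna3 lies opposite Gm27008 in the GENCODE models, whose median was 6.95 CPM in Sst and 0.10 CPM in Pvalb. Whether the counting used strand is not stated, so reads of this pair cannot be told apart.

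Among the beta genes, Kcnab3 marked the Pvalb class most sharply. Its lowest, median and highest levels were 174.8, 325.5 and 453.7 CPM in Pvalb. The highest profile of any other class was 122.8 CPM in a Fezf2 mouse, so Pvalb did not overlap any class. The mean was 342.4 ± 68.9 CPM in Pvalb against 51 CPM over the other classes (log2 difference 3.16, SE 0.15, limma adjusted p = 9.41e-28). It was low in the glutamatergic class with neither marker, with a lowest, median and highest of 1.82, 4.83 and 27.3 CPM in 7 mice and a mean of 7.47 ± 8.98 CPM against 98.9 CPM over the other classes (log2 difference -3.46, limma adjusted p = 7.57e-21, and -2.30 with a pseudocount of 10). Rorb with Fezf2 was lower as well, with 15.1, 30.9 and 17.3 CPM in eHGT_058h mice and 32.2 and 16.6 CPM in eHGT_078h mice (log2 difference -1.31, limma adjusted p = 4.51e-05, and -0.89 in mice of prefix letter G). The antisense gene Kcnab3os overlaps Kcnab3 in the models, and their reads cannot be told apart without strand. The same limit holds for Kcna6 with Gm26673, Kcnab1 with A330015K06Rik and Kcnab2 with Nphp4. AC113458.1 overlaps Kcnab1 on the same strand.

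Kcnab1, whose product speeds inactivation of Kcna1-containing channels, and Kcnab2, whose product helps move channels into axons, were also highest in Pvalb. Kcnab1 had a lowest, median and highest of 249.1, 526.5 and 597.2 CPM in Pvalb. The next class, Rorb with Fezf2, had 184.9 to 238.97 CPM in 5 mice and did not overlap it, while Sst ran from 74.6 to 263.4 CPM and overlapped the lowest Pvalb mouse. The log2 difference of Pvalb from the other classes was 1.955 (SE 0.15 (0.146), limma adjusted p = 1e-18). Vip was lower, with 54.3 and 39.6 CPM in the eHGT_017h mice, 122.8 in the eHGT_019h mouse and 76.1 in the hDLXI56i mouse (log2 difference -1.26, limma adjusted p = 0.000307, and 0.0623 with mouse as a fixed block). Kcnab2 had a lowest, median and highest of 67, 123.7 and 203.1 CPM in Pvalb. The other 7 classes had means of 46.1 to 60.6 CPM, and each overlapped the next in order. The log2 difference of Pvalb was 1.20 (SE 0.13, limma adjusted p = 2.05e-12), and it was called in no other class.

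Between the GABAergic and the glutamatergic classes, 2 of the 8 genes were called, against 13.5% of all genes. Kcna3 averaged 62.3 CPM over the GABAergic and 17.6 CPM over the glutamatergic class means (log2 difference 1.79, SE 0.16, limma adjusted p = 3.98e-15). Kcnab3 averaged 129.3 CPM over the GABAergic and 45.6 CPM over the glutamatergic class means (log2 difference 1.60 (1.598), limma adjusted p = 2.58e-12), and the difference was 3.13 in mice of prefix letter G and 2.92 in those of J, which hold fewer classes. Kcna1 (0.74) and Kcna6 (0.90) passed the adjusted p but stayed under the fold limit. The other 4 genes did not pass.

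The Pvalb and Sst classes were compared directly because 8 mice held at least 5 cells of both, so that animal and virus are shared. Of the 8 genes, 6 were called, against 8.03% of all genes. Kcna1 had 384.7 CPM in Pvalb against 133.1 CPM in Sst cells of the eHGT_023h MouseID-498748, and 248.2 against 86.9, 308.6 against 110.7, 249.9 against 78.9 and 278.6 against 109.7 CPM in the 4 eHGT_064h mice. It had 294.1 against 188.2 CPM in the eHGT_079h MouseID-475241, and 168.7 against 124.6 and 168.97 against 97 CPM in the hDLXI56i mice. The Pvalb cells were higher in all 8 mice, and least so in the eHGT_079h and hDLXI56i mice. Over all profiles the log2 difference was 1.56 (SE 0.14 (0.135), limma adjusted p = 2.68e-15).

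**Figure D2:**
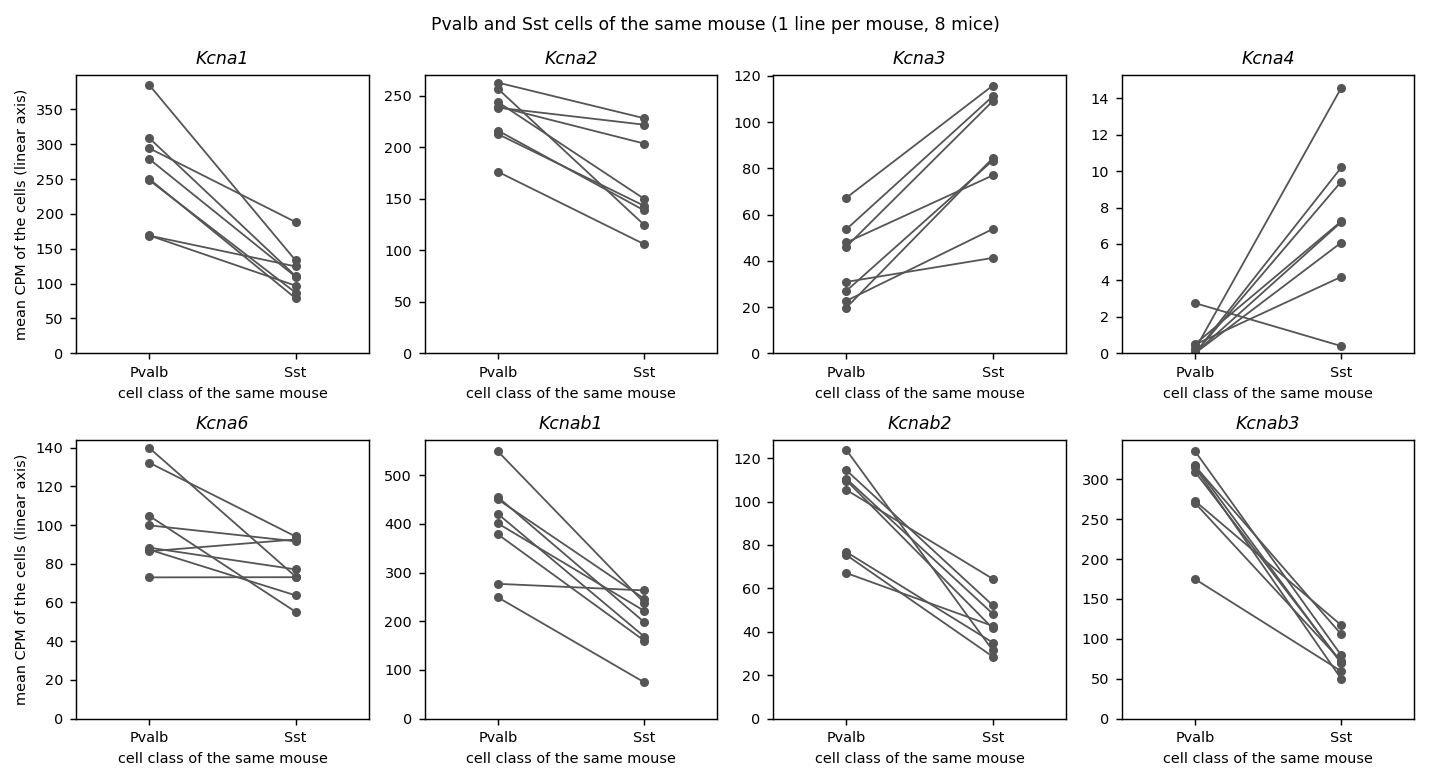
Mean CPM (linear axis from 0) of the Pvalb cells (left) and Sst cells (right) of the same mouse, 1 line for each of 8 mice. The lines of Kcna1, Kcna2, Kcnab1, Kcnab2 and Kcnab3 stand higher in Pvalb in all 8 mice, and those of Kcna3 stand higher in Sst in all 8.

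Kcnab3 had 335.1, 309.3, 317.3, 314.8, 270.2, 316.5, 174.8 and 272.7 CPM in Pvalb cells against 79.3, 70.4, 69.1, 49.7, 72, 105.5, 59.3 and 116.98 CPM in Sst cells of those mice in the same order. The 2 sets did not overlap, and the log2 difference over all profiles was 2.10 (SE 0.20, limma adjusted p = 6.71e-14). Kcnab2 was higher in Pvalb in 8 of 8 mice (1.40, limma adjusted p = 2.3e-10). So was Kcnab1 (1.28, limma adjusted p = 9.52e-08), although in the hDLXI56i mouse MouseID-400157 the log2 difference was 0.07. The Kcnab1 difference was 0.97 with mouse as a fixed block and 0.88 when a cell took the class of its highest marker, under the fold limit in both.

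Kcna3 went the other way. It had 22.7, 67.3, 19.8, 48, 27, 53.7, 30.9 and 46.2 CPM in Pvalb cells against 53.7, 115.8, 84.4, 77, 83.4, 111.2, 41.3 and 109.1 CPM in Sst cells of the same mice, and the Sst cells were higher in all 8 (log2 difference -1.34, SE 0.19, limma adjusted p = 2.55e-08). Kcna4 was higher in Sst in 7 of 8 mice (log2 difference -2.01, limma adjusted p = 2.13e-08), with 0 to 0.50 CPM in Pvalb and 4.20 to 14.6 CPM in Sst cells of those 7. The exception was the eHGT_023h MouseID-498748, with 2.75 CPM in Pvalb and 0.39 CPM in Sst cells. The Kcna4 difference depended on the scale, at -0.59 with a pseudocount of 10, -0.80 with the mean of log2 per cell and -3.44 with a pseudocount of 0.1, and in mice of prefix letter J its adjusted p was 0.145. Kcna2, higher in Pvalb in 8 of 8 mice, passed the adjusted p but not the fold limit (0.59). Kcna6, higher in Pvalb in 6 of 8, did not pass (0.32, limma adjusted p = 0.254). Cells with both Pvalb and Sst at 100 CPM or more (12 mice with at least 5 such cells) were in neither class. Their means were 248.9 ± 73.4 CPM for Kcna1, 260.3 ± 58.1 for Kcnab3 and 73.9 ± 20.6 for Kcna3, each between the Pvalb and Sst means, as were those of Kcna2, Kcna4, Kcnab1 and Kcnab2. Kcna6 averaged 111.5 ± 21.3 CPM in them, above its means of 101.4 CPM in Pvalb and 81.3 CPM in Sst. Whether such cells are 1 cell or more was not tested.

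To compare levels between genes, CPM was divided by the exon length of each GENCODE gene model, which gives the make-up of the alpha and beta RNA in each class. Kcna1 held 55.3 ± 8.11% of the summed alpha level per kb in Pvalb (SD, n = 21), with Kcna2, Kcna3 and Kcna6 at 16.5%, 14.7% and 13.4% and Kcna4 at 0.15%. In Sst, Kcna3 held the largest share, 46.7 ± 8.83% (n = 12), before Kcna1 with 24.3%. Vip had Kcna3 at 56.25 ± 6.09% and Kcna4 at 12.3% (n = 4). Rorb and Rorb with Fezf2 were led by Kcna2, with 40.9 ± 11.8% and 38.1 ± 6.33%, and Fezf2 and the class with neither marker by Kcna1, with 38.6% in both. The summed alpha level per kb was 133.97 ± 21.4 in Pvalb, 104.6 ± 20.3 in Sst and 42 ± 7.28 in Rorb.

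**Figure D3:**
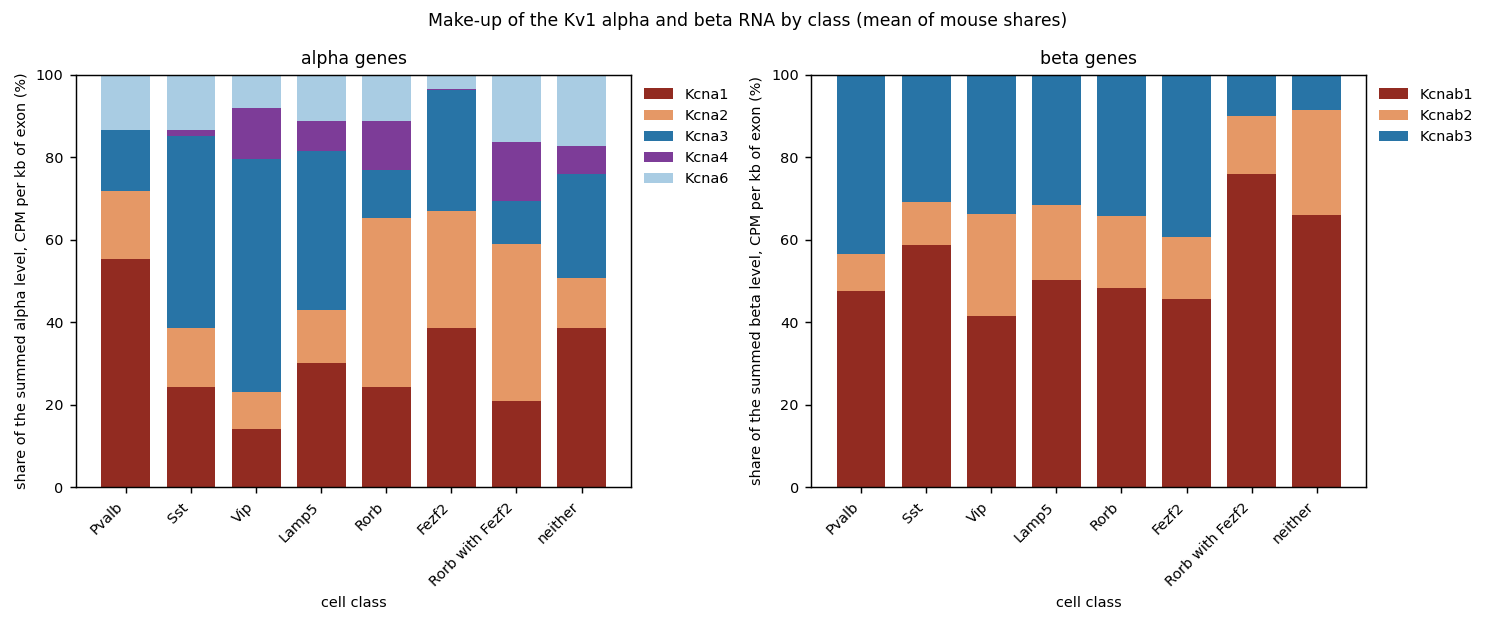
Share of each gene in the summed level per kb of exon of the 5 alpha genes (left) and the 3 beta genes (right), as the mean of mouse shares in each class. Kcna1 fills 55.3% of the alpha bar in Pvalb and Kcna3 46.7% in Sst, and Kcnab3 fills 43.5% of the beta bar in Pvalb and 8.69% in the class with neither marker.

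These shares rest on the gene models: that of Kcna3 has 1902 exon bases and that of Kcna2 has 11906. With no length correction, Kcna2 led in Sst with 37.4% against 20.1% for Kcna3, in Fezf2 with 57.6% against 29.2% for Kcna1, and in Lamp5 with 32.6%, where Kcna3 led per kb (38.6%). The Kcna3 share in Vip was then 28.1%, level with the 27.9% of Kcna2. Kcna1 still led in Pvalb with 44.7% against 35.7% for Kcna2, and in the class with neither marker with 34.5%. The beta RNA of Pvalb was Kcnab1 (47.6%) and Kcnab3 (43.5%) in near balance, and that of Rorb with Fezf2 was mostly Kcnab1 (76 ± 6.13%). The summed beta level per kb was 311.1 ± 59.7 in Pvalb, 103.1 ± 22.7 in Sst and 54.3 ± 22.6 in the class with neither marker.

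How often each RNA was found at 10 CPM or more in single cells followed the order of the mean levels only in part. Kcna1 reached it in 99.1% of 575 Pvalb cells and 46% of 50 Vip cells, and the shares were 99.1% and 49% for at least 1 read after thinning each cell to 100000 reads. Kcna4 reached it in 4.52% of Pvalb and 10.5% of Fezf2 cells against 72.3% of Rorb with Fezf2 and 52% of Vip cells. Kcna1 with Kcna2 together were found in 98.8% of Pvalb and 34% of Vip cells. All 3 beta genes were found together in 97.4% of Pvalb cells, 64% of Sst cells and 8.18% of the cells with neither marker. Exactly 4 of the 5 alpha genes were found in 65% of Pvalb and 73.8% of Sst cells, and no Pvalb, Sst, Vip or Lamp5 cell lacked all 5. Across the 575 Pvalb cells, which came from 25 mice and are not replicates, the rank correlation of Kcna1 with Kcnab2 was 0.57 (0.566), with Kcna2 0.43, with Kcna3 -0.24 and with Kcna6 -0.23 (-0.225).

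The Pvalb cells were then divided by Tac1, the gene of the neuropeptide precursor of substance P, which marks part of these neurons. Cells with Tac1 at 100 CPM or more were set against those below within 16 mice of 7 enhancers. None of the 8 genes was called in limma, against 0.983% of all genes, since no difference reached the fold limit, but 7 of the 8 had an adjusted p under 0.05, against 5.54% of all genes, and the same 7 an unadjusted p under 0.05. Kcna1 had a lowest, median and highest of 186.7, 253.4 and 384.6 CPM in Tac1-high cells against 354.4, 429.2 and 582 CPM in Tac1-low cells. It was lower in the Tac1-high cells of all 16 mice, with a mean of 271.9 ± 59 against 440.5 ± 61.1 CPM (log2 difference -0.71, SE 0.06, limma adjusted p = 1.57e-07). Kcna2 was lower in all 16 as well, at 247.4 against 301.8 CPM (-0.29, limma adjusted p = 0.000213). Kcnab1 (-0.23), Kcnab2 (-0.48) and Kcnab3 (-0.20) were lower in 15 of 16 mice each, with limma adjusted p of 0.000213, 0.00103 and 0.00267. Kcna3 and Kcna6 went the other way, each higher in the Tac1-high cells of 14 of 16 mice, at 40.4 against 27.6 CPM (0.60, limma adjusted p = 0.0172) and 105.8 against 89.2 CPM (0.25, limma adjusted p = 0.00832). Pvalb itself had a median of 2176.15 CPM in Tac1-high and 3090.7 CPM in Tac1-low cells, its part in these differences was not tested, and median reads per cell were 600833 and 605639.

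**Figure D4:**
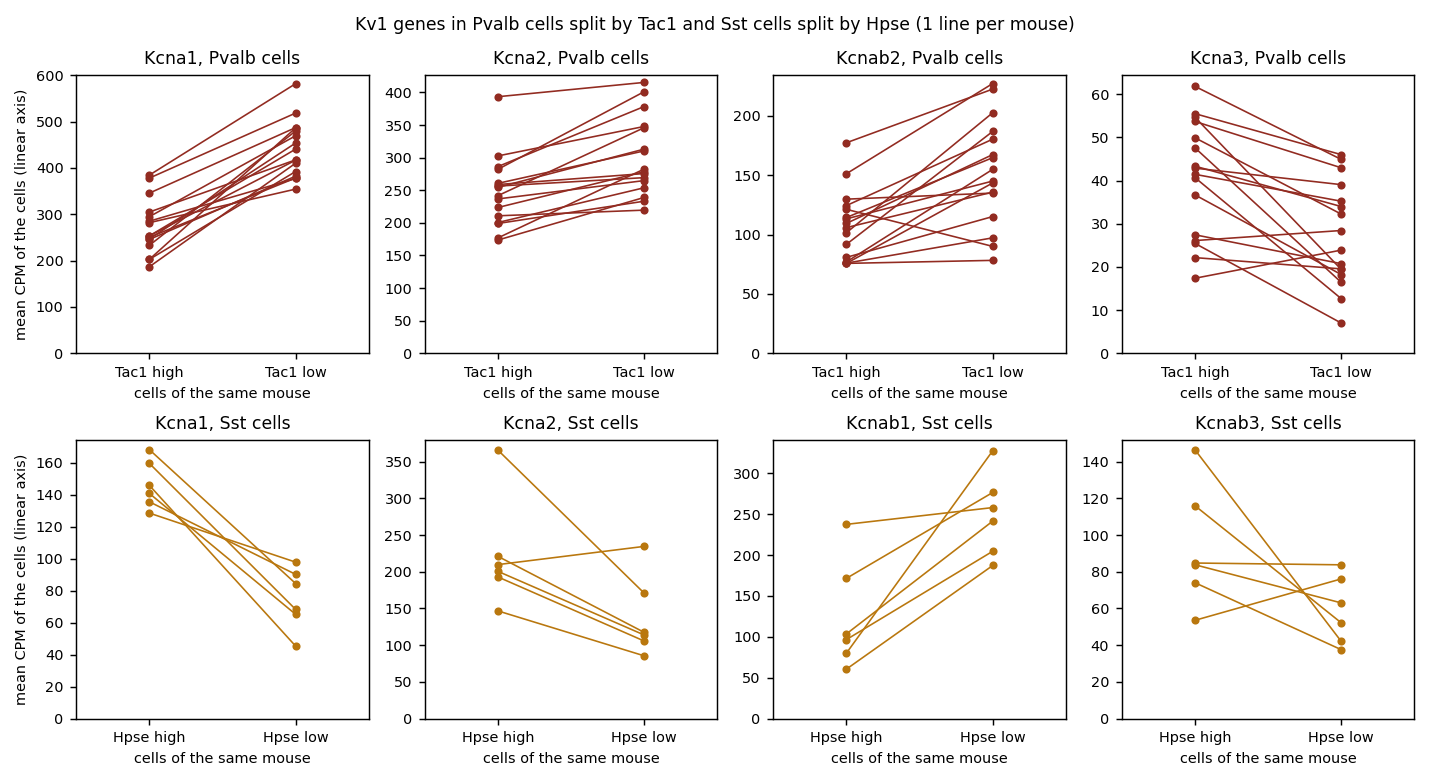
Mean CPM (linear axis from 0) of Pvalb cells high (left) and low (right) in Tac1 in 16 mice, upper row, and of Sst cells high and low in Hpse in 6 mice, lower row, 1 line per mouse. Kcna1 is lower in the Tac1-high cells of all 16 mice and higher in the Hpse-high cells of all 6, where Kcnab1 is lower in all 6.

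The Sst cells were divided in the same way by Hpse, the gene of the heparan sulphate cleaving enzyme heparanase, at 10 CPM (43 cells high, 76 low, 6 mice of eHGT_017h and eHGT_064h). In limma, 1 of the 8 genes was called, against 0.531% of all genes. Kcnab1 had 237.5, 60.5, 171.5, 103.6, 96.6 and 80.1 CPM in Hpse-high cells against 258.01, 187.2, 276.5, 241.5, 204.6 and 327.5 CPM in Hpse-low cells of the same mice. The Hpse-high cells were lower in all 6, least in the first (124.9 ± 66.7 against 249.2 ± 50.7 CPM, log2 difference -1.12, SE 0.20, limma adjusted p = 0.0302). The call rested on few mice: without MouseID-408805, MouseID-492045, MouseID-497550 or MouseID-498750 in turn, the log2 difference was -0.94 to -1.13 and the adjusted p 0.0700 to 0.0992. With no filter on low values the adjusted p was 0.102. Kcna1 had 159.7, 128.6, 140.9, 168.3, 145.97 and 135.7 CPM in Hpse-high cells against 68.3, 97.9, 65.3, 84.5, 45.4 and 90.3 CPM in Hpse-low cells. These sets did not overlap, and the log2 difference of 0.99 (limma adjusted p = 0.0222) fell just under the fold limit.

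Across the 11 enhancers, with all sorted cells of a mouse averaged, 8 of 8 genes differed in limma's omnibus test, against 53.4% of all 18932 genes tested, with adjusted p between 2.14e-09 for Kcna6 and 0.000258 for Kcna3. In single enhancers set against the mean of the other 10, 30 of 88 pairs were called, against 5.6% of all genes over the 11 comparisons. eHGT_019h held 6 of the 8 genes (9.62% of all genes called), eHGT_078h 5 (14.4%), and eHGT_128h 4 (4.74%). eHGT_017h (5.19%), eHGT_058h (12.5%), eHGT_079h (1.86%), eHGT_082h (1.67%) and eHGT_140h (5.4%) held 3 each. None was called in eHGT_023h (0.65%), eHGT_064h (2.51%) or hDLXI56i (3.11%). A mouse mean mixes levels with the classes an enhancer labels: every profile of at least 5 cells in the fit from eHGT_128h and eHGT_140h mice was Pvalb, and those of eHGT_078h were all glutamatergic.

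**Figure D5:**
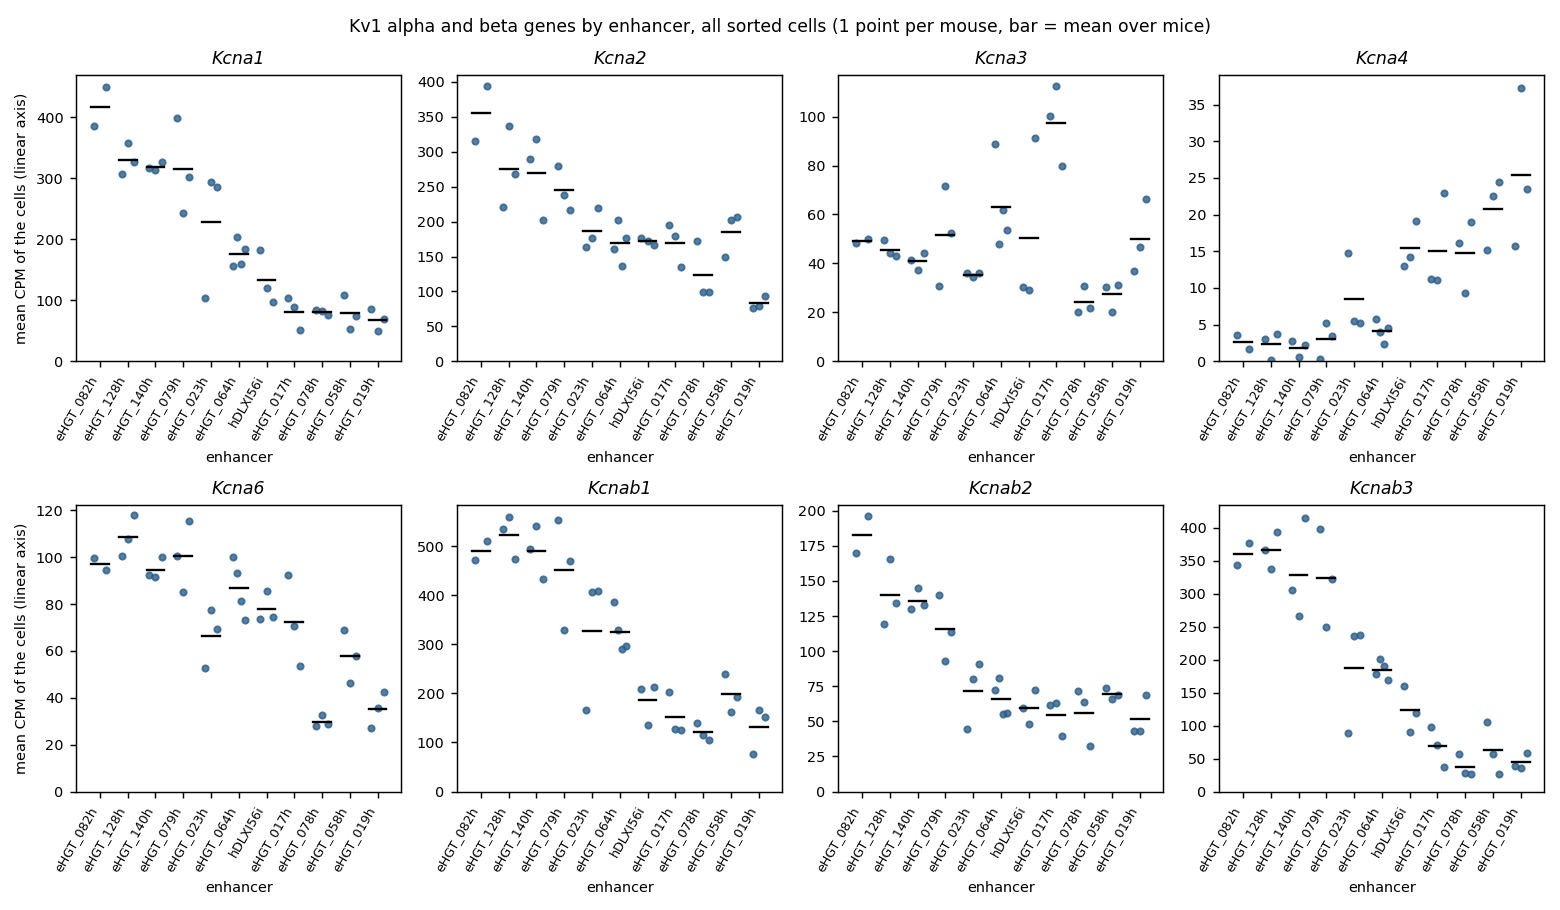
Mean CPM over all sorted cells of each mouse (points, linear axis from 0) for the 8 genes by enhancer, ordered by mean Kcna1, with the mean over mice as a bar. Kcna1 is at 385.2 and 450 CPM in the eHGT_082h mice and at 49.7 to 85.2 CPM in the eHGT_019h mice.

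Kcna1 and Kcnab3 gave the same split of the enhancers, and 8 of the 11 were called for each. Kcna1 had 385.2 and 450 CPM in the eHGT_082h mice, 306.2, 327.05 and 357.4 in eHGT_128h, 313.3, 317.6 and 326.2 in eHGT_140h and 243.7, 302.7 and 399.5 in eHGT_079h. Against these stood 50.6, 88.2 and 104.1 CPM in eHGT_017h, 75.9, 82.8 and 83.4 in eHGT_078h, 53.5, 73.4 and 109.3 in eHGT_058h and 49.7, 69.6 and 85.2 in eHGT_019h. The first 4 enhancers did not overlap the last 4. Log2 differences were 1.49, 1.12, 1.07 and 1.02 for the first 4 and -1.16, -1.10, -1.20 and -1.40 for the last 4, with limma adjusted p between 3e-05 (2.995e-05) and 0.0105. Kcnab3 averaged 365.5 CPM in eHGT_128h, 360 in eHGT_082h, 328.5 in eHGT_140h and 323.2 in eHGT_079h, and 68.6 in eHGT_017h, 62.9 in eHGT_058h, 44.3 in eHGT_019h and 37.1 in eHGT_078h. Its log2 differences were 1.57, 1.55, 1.37 and 1.35, and -1.18, -1.43, -1.78 and -2.12, in the same order. For Kcna1 the calls ended in eHGT_017h without MouseID-410195 (-0.86), in eHGT_058h without MouseID-463481 (-0.96), in eHGT_082h without MouseID-475242 (adjusted p 0.39) and in eHGT_079h without MouseID-410195, MouseID-497548, MouseID-463481, MouseID-473544 or MouseID-505189 (0.84 to 1.04 (1.035)). The Kcna1 call also ended with the mean of log2 per cell in eHGT_078h (-0.90 (-0.895)) and with a pseudocount of 10 in eHGT_079h (0.96). For Kcnab3 they ended in eHGT_017h without MouseID-410195 (-0.81), in eHGT_058h without MouseID-497551 (-0.93) and in mice of prefix letter G (-0.91), in eHGT_079h without MouseID-473544 or MouseID-505189 (adjusted p 0.183 and 0.0762), and in eHGT_082h without either mouse (adjusted p 0.147 (0.1465) and 0.549 (0.5485)), where 1 lone mouse is assumed to vary like the other groups.

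The other genes were called in fewer enhancers. Kcna2 had 76.9, 79.7 and 93.6 CPM in eHGT_019h, below every other mouse (log2 difference -1.28, SE 0.15, limma adjusted p = 1.54e-07). Kcna3 had 79.9, 100.1 and 112.6 CPM in eHGT_017h against a mean of 43.8 CPM elsewhere, overlapping eHGT_064h (up to 88.9 CPM) and hDLXI56i (up to 91.4 CPM) (1.22, limma adjusted p = 0.000506). Kcna6 was lower in eHGT_019h (35.2 ± 7.66 CPM, -1.085) and eHGT_078h (29.8 ± 2.71 CPM, -1.32), the first not without MouseID-392043 (-0.92) or with a pseudocount of 10 (-0.93). Kcnab1 was higher in eHGT_128h (523.1 ± 43.8 CPM, 1.08) and lower in eHGT_019h (131.5 ± 49.1 CPM, -1.19) and eHGT_078h (120.4 ± 17.7 CPM, -1.25), the eHGT_019h call ending without MouseID-392043 (-0.83). Kcnab2 had 170.03 and 196.04 CPM in eHGT_082h, above the 165.5 CPM of the highest other mouse (1.27, limma adjusted p = 0.00381, and 0.39 without MouseID-475242).

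Kcna4 was higher in eHGT_019h (15.7, 23.4 and 37.2 CPM, 1.83), eHGT_058h (15.2, 22.6 and 24.4 CPM, 1.575) and eHGT_078h (9.35, 16.1 and 19 CPM, 1.04). It was lower in eHGT_079h (0.29, 3.39 and 5.24 CPM, -1.39), eHGT_128h (0.14, 3.04 and 3.73 CPM, -1.65) and eHGT_140h (0.63, 2.25 and 2.70 CPM, -1.705). The high 3 did not overlap the low 3. Their limma adjusted p lay between 0.000599 in eHGT_019h and 0.0360 in eHGT_078h. Levels like those of eHGT_078h, but not called, were found in hDLXI56i (13, 14.2 and 19.1 CPM, 1.14, limma adjusted p = 0.0515). The same held for eHGT_017h (11.1, 11.25 and 23 CPM, 1.045, limma adjusted p = 0.0704). At these low levels the calls were fragile: a pseudocount of 10 took all 6 under the fold limit (0.43 to 0.97 higher, -0.59 to -0.72 lower). The eHGT_078h call ended without MouseID-453328, MouseID-498749, MouseID-473544 or MouseID-473546 (0.85 to 0.98), eHGT_079h without MouseID-473544 (-0.72) or MouseID-505189 (adjusted p 0.0848), eHGT_128h without MouseID-473546 (adjusted p 0.179) and eHGT_140h without MouseID-473543 (adjusted p 0.0628). Voom ended the calls of the 3 lower enhancers, with adjusted p of 0.133, 0.0557 and 0.118, and the mean of log2 per cell that of eHGT_128h (-0.97). A pseudocount of 0.1, no filter, the mean of log2 per cell and mice of prefix letter G each ended the eHGT_078h and eHGT_079h calls.

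The enhancers were also compared within 1 cell class, over fewer mice and enhancers, and the difference from the fit over all cells was not tested. Among Pvalb cells of 20 mice and 7 enhancers (563 cells), 2 of 8 genes differed in limma's omnibus test, against 1.28% of all genes. Kcna1 averaged 408.1 CPM in eHGT_023h, 271.3 in eHGT_064h, 361.9 in eHGT_079h, 475.4 in eHGT_082h, 337.3 in eHGT_128h, 333.8 in eHGT_140h and 209.7 in hDLXI56i (adjusted p = 0.0176). Kcnab2 averaged 115.7, 93, 129.5, 197.5, 136.6, 140.5 and 85.1 CPM in the same order (adjusted p = 0.0202). Both were highest in eHGT_082h and lowest in hDLXI56i. For hDLXI56i against the other enhancers, the log2 differences were -0.82 for Kcna1 (limma adjusted p = 0.000818) and -0.64 for Kcnab2 (limma adjusted p = 0.00632). For eHGT_082h they were 0.61 (limma adjusted p = 0.722) and 0.79 (limma adjusted p = 0.380). In hDLXI56i, Kcnab1 (-0.75, limma adjusted p = 0.00105) and Kcnab3 (-0.56, limma adjusted p = 0.0129) were lower too. Kcna6 was higher there (0.45, limma adjusted p = 0.0194). The omnibus tests of Kcnab1, Kcnab3 and Kcna6 did not pass. Of all 16424 genes tested, 734 were called in hDLXI56i and 0 in eHGT_082h. Leaving out either eHGT_082h mouse (MouseID-473545 or MouseID-475242) removes that group, and the limma adjusted p were then 0.0570 for Kcna1 and 0.1105 for Kcnab2, while without MouseID-384912 that of Kcna1 was 0.0591. Kcnab1 (0.0523) was called without MouseID-475241, MouseID-382159 or MouseID-400157, with limma adjusted p of 0.0206, 0.0110 and 0.0467. Among Sst cells of 11 mice and 4 enhancers, 0 of 8 were called in limma, against 0.16% of all genes, and 1 had an unadjusted p under 0.05: Kcna2, with 226.2 CPM in eHGT_017h, 130.8 in eHGT_023h, 134.3 in eHGT_064h and 212.6 in hDLXI56i (limma adjusted p = 0.0944).

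Kv1 channels are held in place by a set of partner proteins, and 14 of them were listed: the adhesion proteins Cntnap2 and Cntn2, the secreted Lgi proteins and their Adam receptors, the Dlg scaffolds and the linker Epb4.1l3. Of these 14, 12 were called in the omnibus test over classes, against 67.2% of all genes, and 11 over enhancers, against 53.4%. In the Pvalb class 5 were called, against 12.1% of all genes, and the median log2 difference of the 14 was -0.15 (-0.149). Lgi2 (167 ± 32.4 against 46.6 CPM over the other classes, 2.16, limma adjusted p = 1.14e-24), Lgi3 (166 ± 32.8 against 59.1 CPM, 1.81) and Epb4.1l3 (244.9 ± 45.7 against 133.8 CPM, 1.08) were higher, and Lgi1 (34.4 ± 11.7 against 102.9 CPM, -1.53) and Dlg1 (44.1 ± 15.4 against 171.95 CPM, -1.27) were lower. Against Sst, Lgi2 (2.27, 167 CPM in Pvalb and 35.9 CPM in Sst) and Adam11 (1.24, 24.6 CPM in Pvalb and 11.1 CPM in Sst) were called, against 8.03% of all genes. Cntnap2, which anchors Kv1 channels beside nodes, was lower in the class with neither marker, where Kcnab3 and Kcna2 were also lower, with 57.6 to 98 CPM in 7 mice, below every profile of the other classes (-2.48, limma adjusted p = 1.73e-16). Lgi3 was near 0 in part of the Lamp5 class (0.69 to 23.6 CPM, -3.10). Dlg1 had the widest gap between transmitter classes, at 38.3 CPM over the GABAergic and 273.7 CPM over the glutamatergic class means (-3.02, limma adjusted p = 4.23e-20).

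Of the other Kv1 alpha genes, Kcna5 was called in the Fezf2 class, with 2.95, 8.72 and 2.18 CPM in the 3 mice against 0.27 CPM over the other classes (log2 difference 2.07, limma adjusted p = 1.36e-05). Kcna10 was not called in any class and Kcna7 was too low to test. Adarb1, which encodes an enzyme that edits Kcna1 RNA in the pore region, was lower in Fezf2, with 16 ± 4.61 CPM (n = 3) against 53.7 CPM over the other classes (-1.61, limma adjusted p = 9.76e-07), and Adar was called in no class. The files hold no editing levels.

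Over the 64 profiles of 33 mice, the genes of highest rank correlation with each Kv1 gene were found among the 7274 genes whose mean reached 20 CPM. The profiles share mice and classes, so the values are a description. The genes most like Kcna1 included Rell2 (Spearman's rho 0.91) and Sparcl1 (0.905), and Kcnab3 was most like Vamp1 (0.91), a vesicle fusion protein, Cplx1 (0.91), a regulator of release, and Scn1a (0.89), a sodium channel of fast-spiking interneurons. Kcna2 was most like Lynx1 (0.88), a modulator of nicotinic receptors, St8sia1 (0.86) and Ttll7 (0.84). Kcna3 was most like Tmem130 (0.90), Zcchc12 (0.88) and Alg2 (0.85), and Kcna4 like Atp1b2 (0.81), a sodium pump subunit, Npy1r (0.81), a neuropeptide Y receptor, and Scn3a (0.80). Kcna6 was most like Fam134b (0.84), Nxph2 (0.83) and Eya4 (0.83), Kcnab1 like Smim13 (0.87), Nek7 (0.85) and Ndrg4 (0.84), and Kcnab2 like Hapln4 (0.80), a protein of the matrix around fast-spiking neurons, Fam73b (0.78) and Man1c1 (0.78).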

How the data were processed

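Single sorted cells (1483, from 33 mice) were measured by polyadenylated RNA sequencing. The authors deposited 1 table of CPM per cell in which each cell sums to 1000000. STAR and mm10 are named in the submitters' processing notes without version or role, and the counter, annotation and strand setting are not stated. Within a cell, every value was a whole number of steps of 1 read (tolerance 0.01 reads), which gave the depth of each cell, from 833 to 1018507 reads with a median of 586338. Reads carry no molecular identifiers. Each cell is its own library, and no cell filter or doublet caller was run. Cells with several class markers or both transmitter genes were left out of the classes.

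CPM was averaged over the cells of each mouse, or of each mouse and class with at least 5 cells. Differences were fitted with limma 3.58.1 (R 4.3.3, statmod 1.5.0) on log2(mean CPM + 1), with a trended and robust variance, keeping genes that reached 1 CPM in 2 or more profiles, and Benjamini-Hochberg adjustment over all genes. A fold change on this scale understates the change of low genes. The class fit held mouse as a random block (correlation 0.0705). Enhancers and classes were each set against the mean of the others. Cells of 1 mouse are not replicates, and mice of 1 enhancer are the replicates as far as the labels say. The fits were also run on simulated Gaussian log2 values with changes planted in genes above a low mean level, which is no test of genes near 0. Alternatives were pseudocounts of 0.1 and 10, no filter, means of log2 per cell, cells of at least 100000 reads, limma voom on recovered reads, other blocks, class thresholds and cell minimums, each prefix letter alone, and leaving out each mouse in turn. Python 3.11.15, numpy 2.4.6, pandas 2.3.3, scipy 1.17.1 and matplotlib 3.10.9 were used. Gene models were GENCODE M21 on GRCm38 and promoters RefSeq on GRCm38.p6. Genes named beyond the 8 are the partners, other Kv1 alpha genes and editing enzymes listed by name, the class and cell type markers, and the 3 genes of highest rank correlation. The 8 genes, the lists and the tests were chosen with earlier results of these data known. One gene that the likeness rule names is not reported here.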

Additional observations from a re-analysis of the deposited data

Results flagged for a closer look

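In 48 groups of 4 to 10 mice, the gap between the highest or lowest mouse and its nearest neighbour was set against the range of the group with Dixon's 95% limit. It was passed in 3, where chance passes about 1 in 20 groups. Kcnab1 in the Rorb class was 204.2 CPM in the eHGT_058h mouse MouseID-497551, against 89.8 to 114.1 CPM in the other 4 mice. Kcnab2 in the Vip class was 121.5 CPM in the eHGT_019h mouse MouseID-401668, against 36.1 to 43.5 CPM in the other 3. Kcnab3 in the class with neither marker was 27.26 CPM in the eHGT_023h mouse MouseID-497548, against 1.82 to 6.995 CPM in the other 6. The flagged Vip mouse was the only Vip mouse from eHGT_019h, and the last was the only mouse of its class from eHGT_023h. Mouse and enhancer cannot be told apart in either.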

How the results depend on the processing

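Of 82 called values and omnibus tests, 49 kept their call in every alternative fit, left-out mice included, and 0 changed direction. A pseudocount of 10 ended 15 calls, 9 of them of Kcna4, and the mean of log2 per cell, mouse as a fixed block and mice of prefix letter G ended 7 each. Over single classes, 25 pairs were called and 14 of 32 in mice of prefix letter J, which hold fewer classes. GABAergic against glutamatergic calls were 2, against 4 with at least 10 cells per profile and 6 with prefix letter J. With the mean of log2 per cell, the Tac1 split had 1 call and the Hpse split 2, and the Hpse split had 0 with no filter. Leaving out each mouse gave 27 to 33 calls over enhancers, 21 to 26 over classes, 2 to 3 between transmitter classes, 6 between Pvalb and Sst, 0 to 3 within Pvalb, 0 within Sst and by Tac1, and 0 to 1 by Hpse. Counts over all genes moved more: over single classes 7054 with a pseudocount of 10 and 30045 with voom against 19922, over single enhancers 3854 and 14893 against 11666, in the class omnibus test 8350 with prefix letter J against 14836, GABAergic against glutamatergic 1152 and 5556 against 2973, and Pvalb against Sst 3479 with voom against 1773, and 0.349 times the 1773 with a pseudocount of 10. Within Pvalb the count was 2.99 times the 210 with the mean of log2 per cell, within Sst 1 with no filter and 41 with at least 3 cells against 26, by Tac1 32 with a pseudocount of 10, which is 0.183 times the count reported, and by Hpse 24 with no filter against 86, and 2.35 times the 86 with at least 3 cells. No paired analysis was possible because the enhancer groups share no mouse, which holds for the enhancer comparisons alone. Class profiles of 1 mouse were tied by the mouse block, the Tac1 and Hpse splits were compared within mice, and in mice with both Pvalb and Sst, with mouse as a fixed block, the same 6 genes were called. edgeR's test on recovered reads, listed at the start, was not run, and voom stands in its place. The voom fits, mice of prefix letter J alone and the fit on mice with both Pvalb and Sst were added after seeing the data. Depth limits Kcna4 in Pvalb and Fezf2 most, where the mean level lay under that of 1 read per cell.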
